A study of Homo sapiens with 4 samples.

Results

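The genes described here set the pace of the G1 phase of the cell cycle: the D cyclins CCND1, CCND2 and CCND3, the kinases CDK4 and CDK6, the inhibitors CDKN1B, CDKN2A, CDKN2C and CDKN2D, and the retinoblastoma gene RB1. They were chosen by function, by a rule that used no measured value, though earlier results of these data were known at the time. They are 10 of 19970 protein-coding genes of chromosomes 1 to 22 and X in the GENCODE 44 annotation. The measurement is the binding of the zinc finger protein ZNF217 to chromatin by CUT&Tag, in which an antibody brings a transposase to the bound protein and the cut DNA is sequenced. Libraries came from 2 untreated human acute myeloid leukemia lines of monocytic character, MV4-11, which carries a KMT2A fusion, and U937, which carries a PICALM fusion, with 1 ZNF217 library and 1 IgG library for each line. The IgG libraries were not analysed here. The study asked how ZNF217 takes part in the transcription factor circuit of acute myeloid leukemia cells and tied its loss to an arrest in G1, which is why the G1 genes were examined.

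In G1, a D-type cyclin binds CDK4 or CDK6 and the complex phosphorylates the RB1 protein, which then releases the E2F factors that transcribe the genes of S phase. The INK4 proteins, among them those encoded by CDKN2A, CDKN2C and CDKN2D, bind CDK4 and CDK6 and block them, and p27, the product of CDKN1B, binds whole cyclin and kinase complexes. CDKN2A also encodes ARF, which is read from a first exon of its own and acts on the p53 pathway. In blood cells CDK6 and CCND3 are among the main partners of this step.

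Each ZNF217 library is known by its list of peaks on the hg38 genome, of which 37635 were listed in MV4-11 and 22521 in U937, that is 1.67 times as many in MV4-11. The median peak was 621 bp wide in MV4-11 and 686 bp in U937. The lists give no height, score or read count, so that depth is unknown, and with 1 library per line no difference between the lines has a replicate check or a test. A promoter is counted as occupied when a peak overlaps by at least 1 bp the 1 kb on either side of any annotated transcription start site (TSS) of the gene. By this measure 4 of 8 myeloid marker genes were occupied in both lines, 3 in MV4-11 alone and LYZ in neither, and of 13 T cell, B cell and erythroid markers 3 were occupied in both lines and 7 in neither. Of all protein-coding genes 47.4% were occupied in both lines and 37.9% in neither, so the myeloid count in both lines is near the share of all genes. Occupancy is not expression.

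All 10 G1 genes had a ZNF217 peak at a promoter in MV4-11 and all 10 in U937. The same holds for 59% of all protein-coding genes in MV4-11, for 50.5% in U937 and for 47.4% in both lines, and the 95% exact binomial interval for 10 of 10 runs from 69.2% to 100%, for counting error only. None of the 10 was unoccupied in both lists, as 37.9% of all genes were. The count depends on which starts are used. With only the most upstream end of each gene record, which is not always the main start, 8 were occupied in MV4-11 (52.5% of all genes). In U937 6 were occupied (44.3%), and 6 in both lines (41.6%). The promoters differed more in how much of them was covered. The widest promoter peak ran from 661 bp at CCND1 to 4920 bp at CCND3 in MV4-11 and from 406 bp to 4530 bp, at the same genes, in U937. Its median over the 10 genes was 1773 bp in MV4-11, against 1084 bp over all occupied genes, and 1634 bp in U937, against 979 bp. A widest promoter peak of at least 2 kb was present at 5 G1 genes in MV4-11 and at 4 in U937. These were CCND3, CDKN1B, CDKN2A and CDKN2C in both lines, and CDK6 in MV4-11. Such a peak was present at 1729 of 11779 occupied genes in MV4-11 (8.66% of all genes) and at 769 of 10091 in U937 (3.85% of all genes). A width of at least 4 kb was reached by CCND3 and CDK6 in MV4-11, beside 215 of the 11779 occupied genes (1.08% of all genes). In U937 CCND3 reached it, beside 34 of the 10091 (0.17% of all genes).

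**Figure D1:**
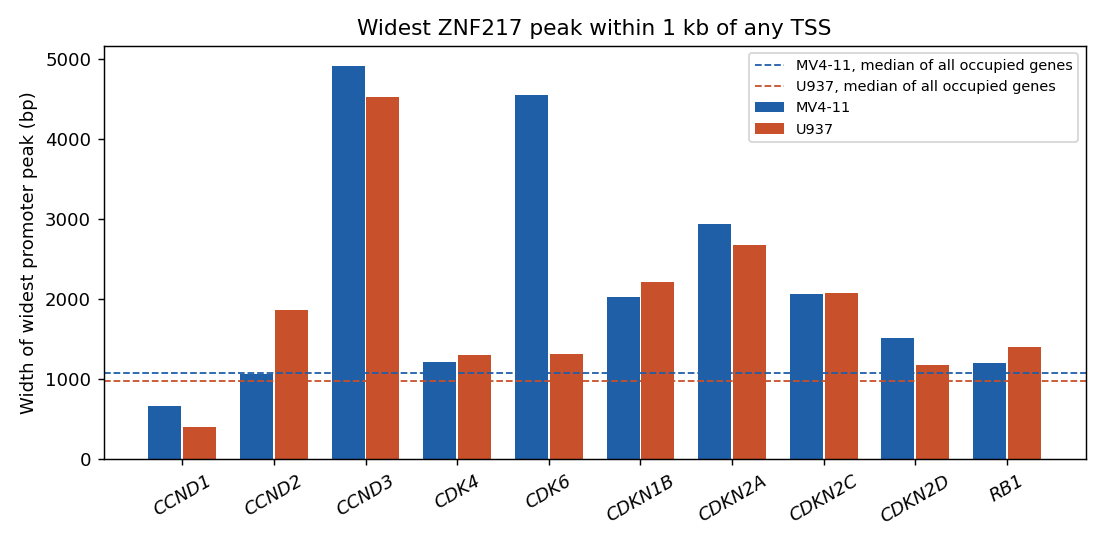
Width in bp of the widest ZNF217 peak at a promoter of each G1 gene on a linear axis from 0, with 1 bar per line and gene and the median of all occupied protein-coding genes in each line as a dashed line. CCND3 is the widest in both lines (4920 and 4530 bp), CCND1 the narrowest (661 and 406 bp), and CDK6 is the gene whose lines lie farthest apart (4556 and 1318 bp).

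Several promoter peaks at 1 gene were also frequent. In each line 5 of the 10 genes had 2 or more promoter peaks, and 4 genes had them in both lines. Of the 11779 occupied genes in MV4-11 3281 had them (16.4% of all genes), and of the 10091 in U937 1917 (9.6% of all genes). The G1 genes have more annotated starts than most, with a median of 7 TSSs per gene against 5 over all genes, which gives them more room to be counted as occupied. Of their 83 starts, 59 lay within reach of a peak in MV4-11 and 56 in U937, and all 56 of U937 were also among those of MV4-11. Many starts of the same gene lie close together, so that 1 peak can reach several. The share over the starts of all genes is not given here, so these counts have no background. With only the MANE Select start, the 1 start per gene on which the RefSeq and Ensembl annotations settled, 8 of the 10 genes were occupied in each line, beside 54.9% of genes in MV4-11, 46.8% in U937 and 44% in both. The 2 genes without a peak there were CCND1 and CDKN2A.

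**Figure D2:**
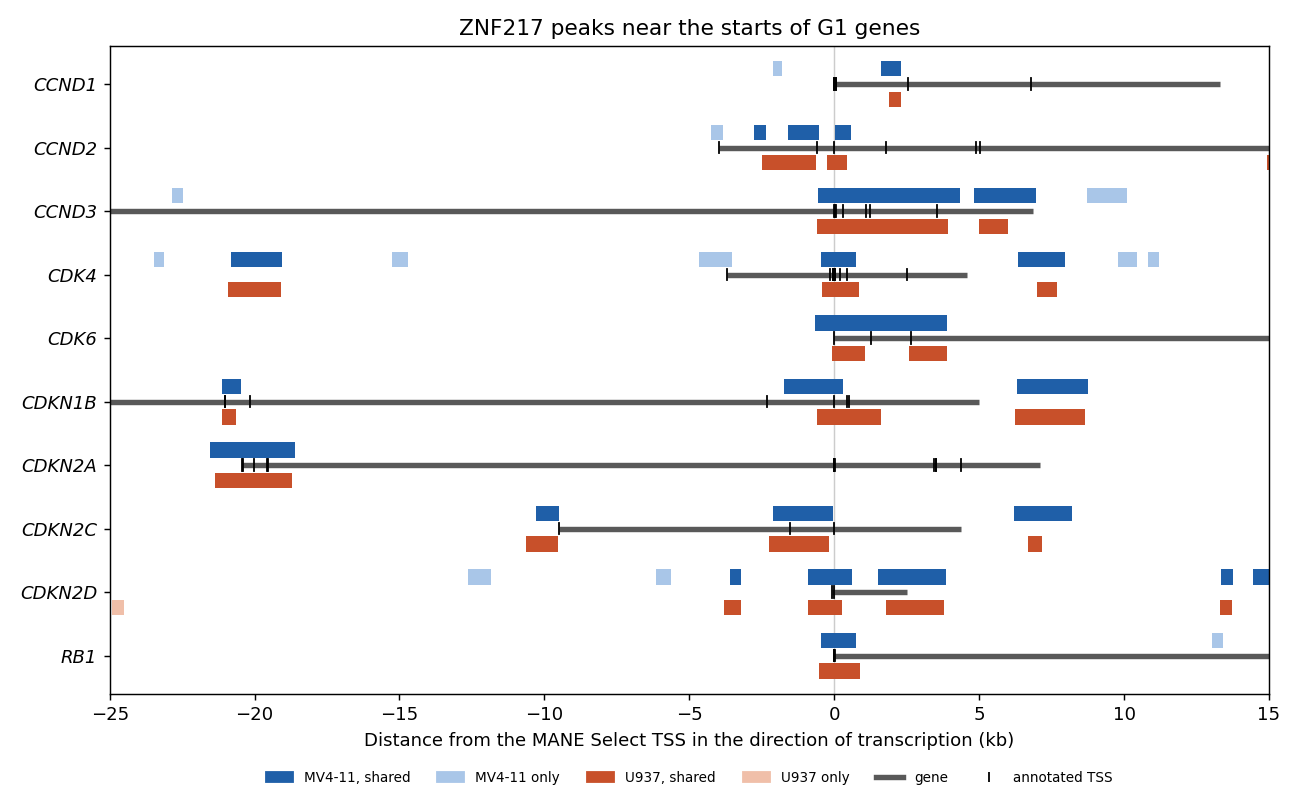
Peaks near the starts of the G1 genes, MV4-11 above and U937 under each gene line, drawn to scale by distance in kb from the MANE Select TSS in the direction of transcription, with ticks at annotated starts and pale bars for peaks found in 1 line. The CCND3 and CDKN2C bars of both lines nearly coincide, the CDKN1B bars are offset, the single CDK6 bar of MV4-11 covers both bars of U937, and no bar comes within 1 kb of the MANE Select start of CCND1 or CDKN2A.

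Among the D cyclins the CCND3 promoter had the widest ZNF217 coverage. CCND3 (chr6:41934934-42050357, minus strand) had a peak of 4920 bp over its main start in MV4-11 (chr6:41937452-41942372) and of 4530 bp in U937 (chr6:41937876-41942406), and their overlap made up 90.8% of the stretch that either covered. Only 0.705% of occupied genes in MV4-11 had a promoter peak at least as wide as that of CCND3 in the same line, and 0.168% in U937. A second group of CCND3 starts, about 107 kb upstream, was occupied too, by peaks of 1161 and 672 bp in MV4-11, and in U937 by peaks of 590 and 1050 bp. Apart from the 590 bp peak of U937, these also lie at a promoter of TAF8, a subunit of the general transcription factor TFIID, so that their signal cannot be assigned to either gene. All 18 annotated starts of CCND3 were occupied in both lines. The sequence just before the main start is shown because the widest promoter peak of both lines covers it completely. It lies at chr6:41941809-41942058 (hg38, printed on the minus strand, from RefSeq), and its capitals mark 1 ETS match (CCGGAA) and 2 SP/KLF matches (GGGCGG), read on either strand.
CCND3 main promoter: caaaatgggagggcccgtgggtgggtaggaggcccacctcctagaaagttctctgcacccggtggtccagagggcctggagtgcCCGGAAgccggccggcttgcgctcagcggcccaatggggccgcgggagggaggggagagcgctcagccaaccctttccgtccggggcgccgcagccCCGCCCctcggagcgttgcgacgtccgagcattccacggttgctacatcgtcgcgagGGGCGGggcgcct

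CCND3 also held the largest number of peaks outside promoters that both lines shared. The gene body and 50 kb on each side, called its window from here on, held 16 peaks in MV4-11, of which 9 overlapped a U937 peak, and 9 in U937, of which 8 were shared. The widest peak outside promoters in MV4-11, of 2141 bp, lay over the last exon and overlapped a U937 peak of 1001 bp. The widest in U937, of 1122 bp, lay in an intron 86.5 kb upstream of the MANE Select start and overlapped an MV4-11 peak of 552 bp. Another 5 intron peaks, of 288 to 719 bp, were in MV4-11 alone and 1, of 491 bp, in U937 alone.

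CCND2 (chr12:4269771-4305353, plus strand) was covered in pieces. MV4-11 had promoter peaks of 395, 1069 and 538 bp, while those of U937 measured 1865 and 693 bp. Apart from the 395 bp peak, these also lie at a promoter of an unnamed protein-coding gene, so that their signal cannot be assigned to either gene. The 538 and 693 bp peaks lie at a promoter of the noncoding gene CCND2-AS1 as well. The 1865 bp peak of U937 overlapped both the 1069 bp peak of MV4-11 and a 416 bp peak just upstream of it, so that the same stretch was called as 1 peak in U937 and as 2 in MV4-11. CCND2 was the D cyclin whose widest promoter peak was wider in U937: 9.88% of occupied genes had one as wide there, against 51.1% in MV4-11. The 395 bp peak, at the most upstream start of the gene, was in MV4-11 alone. Outside promoters, both lines shared an intron peak about 15.5 kb downstream of the MANE Select start, of 1031 bp in MV4-11 against 1279 bp in U937. In all, the window held 7 peaks in MV4-11 and 4 in U937, and each U937 peak was shared. The last of the 4 lay at the promoter of TIGAR, which encodes a regulator of glycolysis, and overlapped an MV4-11 peak of 864 bp.

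CCND1 (chr11:69641156-69654474, plus strand) had the narrowest ZNF217 coverage of the D cyclins. Its promoter peak was 661 bp wide in MV4-11 and 406 bp in U937, and 79.5% and 95.6% of occupied genes had one at least as wide. The peak did not reach the main start of the gene: its nearest edge lay 1630 bp downstream of the MANE Select TSS in MV4-11 and 1885 bp in U937. CCND1 counts as occupied through 1 of 6 annotated starts, that of a transcript with a retained intron, from which the peaks lay 0.266 kb away in both lines. MV4-11 also had a narrow peak of 292 bp upstream of the gene, under the lowest width of 330 bp in the U937 list, and another of 343 bp at 45.1 kb upstream, neither of which was in U937. The other shared peak of the window, of 744 bp in MV4-11 against 1132 bp in U937, lay at the promoter of LTO1, which encodes a protein of iron-sulfur cluster assembly.

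Of the kinases, CDK6 differed most between the lines. CDK6 (chr7:92604921-92836573, minus strand) carried 1 promoter peak of 4556 bp in MV4-11 (chr7:92832665-92837221), which spanned 2 separate peaks of U937, of 1318 bp (chr7:92832675-92833993) and 1148 bp (chr7:92835513-92836661). The U937 peaks filled 28.9% and 25.2% of the MV4-11 peak, and the middle of it was without a call in U937. The 4556 and 1148 bp peaks also lie at a promoter of the noncoding gene CDK6-AS1, so that their signal cannot be assigned to either gene. In MV4-11 1.06% of occupied genes had a promoter peak of at least 4556 bp, and in U937 27.9% had one of at least 1318 bp. The same 3 of 5 CDK6 starts were nevertheless occupied in both lines. The stretches just before 2 RefSeq starts in this promoter are shown because MV4-11 covers both completely while U937 covers 35.2% of the first and 13.6% of the other. They lie at chr7:92836574-92836823 and chr7:92833960-92834209 (hg38, minus strand, from RefSeq), and the capitals mark 3 SP/KLF matches in the first and 1 match to CAGAA, the core of the ZNF217 motif, in the other.
CDK6 before the MANE Select start: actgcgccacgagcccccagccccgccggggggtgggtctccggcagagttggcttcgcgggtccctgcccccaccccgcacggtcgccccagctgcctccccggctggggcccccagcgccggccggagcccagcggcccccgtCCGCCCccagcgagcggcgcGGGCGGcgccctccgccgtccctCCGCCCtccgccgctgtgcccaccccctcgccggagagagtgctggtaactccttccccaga
CDK6 before the inner start: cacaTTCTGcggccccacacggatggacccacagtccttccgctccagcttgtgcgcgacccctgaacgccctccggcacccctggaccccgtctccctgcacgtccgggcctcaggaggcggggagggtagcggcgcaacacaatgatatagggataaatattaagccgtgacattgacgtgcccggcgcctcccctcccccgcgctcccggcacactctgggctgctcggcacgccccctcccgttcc

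The long body of CDK6 held further peaks in MV4-11. Its window had 12 peaks in MV4-11 and 4 in U937, a ratio of 3, against 1.67 over the windows of all protein-coding genes. Of the 12, 10 had no partner in U937. Inside the gene lay 8 of them, from 291 to 981 bp wide, of which the widest was in an intron 196.7 kb downstream of the MANE Select start. U937 had 1 peak of its own in the gene, of 368 bp, near the start of an unnamed long noncoding RNA, and MV4-11 had a 603 bp peak near the same start that did not overlap it. The other shared site was a promoter of the neighbour FAM133B, with 1035 bp in MV4-11 and 729 bp in U937.

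CDK4 (chr12:57747727-57756013, minus strand) had a similar promoter peak in both lines, of 1217 bp in MV4-11 (chr12:57751550-57752767) and 1302 bp in U937 (chr12:57751443-57752745), which overlapped over 90.3% of their joint stretch. A second promoter peak, of 1135 bp, was in MV4-11 alone and lay at the most upstream CDK4 start, which is also a promoter of the ubiquitin ligase gene MARCHF9. The window is dense in genes and held 10 peaks in MV4-11 and 4 in U937. Each of the 4 U937 peaks was shared and lay at a promoter: that of CDK4, and those of TSPAN31, of METTL1 with EEF1AKMT3, and of TSFM. Outside promoters, MV4-11 had 2 peaks, of 339 and 364 bp, and U937 none. The stretch before the CDK4 start is shown for its E-boxes (CACGTG), the site read by MYC and related factors, of which 2 fall in the printed stretch and 3 in the whole window of 300 bp. It lies at chr12:57752448-57752560 (hg38, minus strand, from RefSeq) and was covered in both lines, and its capitals also mark 1 SP/KLF match.
CDK4 promoter: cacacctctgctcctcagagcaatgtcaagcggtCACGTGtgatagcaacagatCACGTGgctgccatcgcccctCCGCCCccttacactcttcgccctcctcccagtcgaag

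Among the inhibitors, CDKN2A showed the sharpest split between its promoters. CDKN2A (chr9:21967752-21995301, minus strand) was covered at the start of the ARF first exon by a peak of 2939 bp in MV4-11 (chr9:21993471-21996410) and of 2677 bp in U937 (chr9:21993557-21996234), the latter wholly inside the former. A promoter peak at least as wide as that of the same line occurred at 4.87% of occupied genes in MV4-11 and at 2.42% in U937. The start of the p16INK4a transcript, at 21974857, was without a peak in either list, and the nearest peak edge lay 18.6 kb upstream in MV4-11 and 18.7 kb in U937, at the ARF peak itself. In all, 5 of the 13 CDKN2A starts were occupied in both lines. The ARF peak also lies over the start of the antisense noncoding gene CDKN2B-AS1, so that the signal cannot be assigned to 1 strand. The other peak of the window was at the promoter of CDKN2B, the INK4 gene next door, with 714 bp in MV4-11 and 1042 bp in U937, and neither line had a peak outside promoters.

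The sequences before both CDKN2A starts are shown because 1 is covered and the other is not. The ARF side lies at chr9:21995325-21995574 and the p16INK4a side at chr9:21974867-21975107 (hg38, minus strand, from RefSeq). Capitals mark 2 PU.1 matches (GAGGAA) on the ARF side, and 1 PU.1 match and 1 SP/KLF match on the p16INK4a side. No CAGAA was found in either printed stretch.
CDKN2A before the ARF start: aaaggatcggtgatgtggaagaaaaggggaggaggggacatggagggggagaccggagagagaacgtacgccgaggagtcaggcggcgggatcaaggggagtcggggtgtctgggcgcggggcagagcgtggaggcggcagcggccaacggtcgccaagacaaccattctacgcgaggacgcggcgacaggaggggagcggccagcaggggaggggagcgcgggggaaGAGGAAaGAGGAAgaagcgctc
CDKN2A before the p16INK4a start: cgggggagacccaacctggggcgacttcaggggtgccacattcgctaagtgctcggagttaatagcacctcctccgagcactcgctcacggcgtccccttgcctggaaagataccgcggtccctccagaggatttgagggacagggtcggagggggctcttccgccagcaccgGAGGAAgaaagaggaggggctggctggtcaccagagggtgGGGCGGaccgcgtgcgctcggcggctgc

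CDKN2C and CDKN1B each had the same number of peaks in both lines. CDKN2C (chr1:50960745-50974634, plus strand), which encodes p18INK4c, had 3 peaks in each line, each shared. Its widest promoter peak measured 2071 bp in MV4-11 and 2073 bp in U937, with an overlap of 86.8% of the joint stretch. A narrower one, of 809 bp in MV4-11 against 1081 bp in U937, lay where CDKN2C and FAF1 are read away from each other. It is also at a promoter of FAF1, so that its signal cannot be assigned to either gene. In U937 its midpoint lay inside FAF1. The shared intergenic site about 7 kb downstream of the MANE Select start was 1975 bp wide in MV4-11 and 482 bp in U937, and was the widest peak outside promoters of this gene in both lines. The central 300 bp of the stretch common to both lines, chr1:50977013-50977312 (hg38, plus strand), is printed as an example of a site away from promoters whose width differed, with its 1 CAGAA match in capitals.
CDKN2C downstream site: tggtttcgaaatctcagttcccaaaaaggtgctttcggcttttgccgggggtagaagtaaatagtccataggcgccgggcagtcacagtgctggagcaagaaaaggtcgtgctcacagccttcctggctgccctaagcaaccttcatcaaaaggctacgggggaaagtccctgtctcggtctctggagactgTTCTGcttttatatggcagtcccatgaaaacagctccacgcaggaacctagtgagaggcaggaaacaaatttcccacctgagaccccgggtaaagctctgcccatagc

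At CDKN1B (chr12:12685498-12722369, plus strand) the main promoter peak was of like width in both lines but shifted. It ran over chr12:12715652-12717686 in MV4-11, which is 2034 bp, and over chr12:12716770-12718988 in U937, which is 2218 bp. The U937 peak began 1118 bp and ended 1302 bp farther downstream, and the common 916 bp made up 27.5% of the joint stretch, against a median of 64.7% over the 16 overlapping pairs of promoter peaks at the G1 genes. The sequence before the main start lies in the part that both lines cover and is shown for that reason, at chr12:12717118-12717367 (hg38, plus strand, from RefSeq), with 1 SP/KLF match in capitals. The other 2 peaks were shared as well. An upstream start held 648 bp in MV4-11 and 506 bp in U937, at a stretch that is also a promoter of the receptor gene GPR19. The promoter of APOLD1, about 7.5 kb downstream, held 2442 and 2416 bp, and neither line had a peak outside promoters.
CDKN1B main promoter: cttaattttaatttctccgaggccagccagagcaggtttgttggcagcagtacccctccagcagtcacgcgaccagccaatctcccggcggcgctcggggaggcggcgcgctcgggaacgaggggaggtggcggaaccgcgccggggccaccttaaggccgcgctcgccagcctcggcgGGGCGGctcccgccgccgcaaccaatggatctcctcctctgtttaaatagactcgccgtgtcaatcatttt

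CDKN2D (chr19:10566460-10569059, minus strand), which encodes p19INK4d, had the densest window of the G1 genes. It held 14 peaks in MV4-11 and 6 in U937, or 13.6 and 5.85 per 100 kb, and 7.21% and 11.7% of all genes had a window at least as dense. The promoter peak was 1512 bp wide in MV4-11 and 1178 bp in U937, the latter inside the former. Most of the other peaks belonged to neighbours. The promoter of KRI1, a ribosome biogenesis gene, had 2322 bp in MV4-11 and 2018 bp in U937, and a promoter of the autophagy gene ATG4D had 2919 and 540 bp. The widest peak outside promoters was 861 bp in MV4-11, in the body of SLC44A2, and 564 bp in U937, at an intergenic site about 3.5 kb upstream of CDKN2D that MV4-11 shared with 379 bp.

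RB1 (chr13:48303744-48599436, plus strand) had a promoter peak of 1204 bp in MV4-11 (chr13:48303292-48304496), which lay wholly inside that of U937 (chr13:48303237-48304640, 1403 bp). It also covers the start of the divergent noncoding gene RB1-DT. In MV4-11 43.0% of occupied genes had a promoter peak of at least 1204 bp, and in U937 23.8% had one of at least 1403 bp. The window was the one with the most U937 peaks that were not shared: of 9 peaks in MV4-11 and 7 in U937, 3 overlapped between the lines. Apart from the promoter, these were 2 promoters of RCBTB2, with 513 and 893 bp in MV4-11 and 445 and 1312 bp in U937. The midpoints of these peaks lay where the annotated records of RB1 and RCBTB2 overlap, so they are not peaks of RB1 alone. Near the promoter each line had an intron peak of its own, of 364 bp in MV4-11 at 13.2 kb and of 366 bp in U937 at 15.5 kb downstream. The widest peaks away from protein-coding promoters were 512 bp in MV4-11, at the start of the noncoding gene LINC01077, and 693 bp in U937. The latter lay within the records of both RB1 and RCBTB2.

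**Figure D3:**
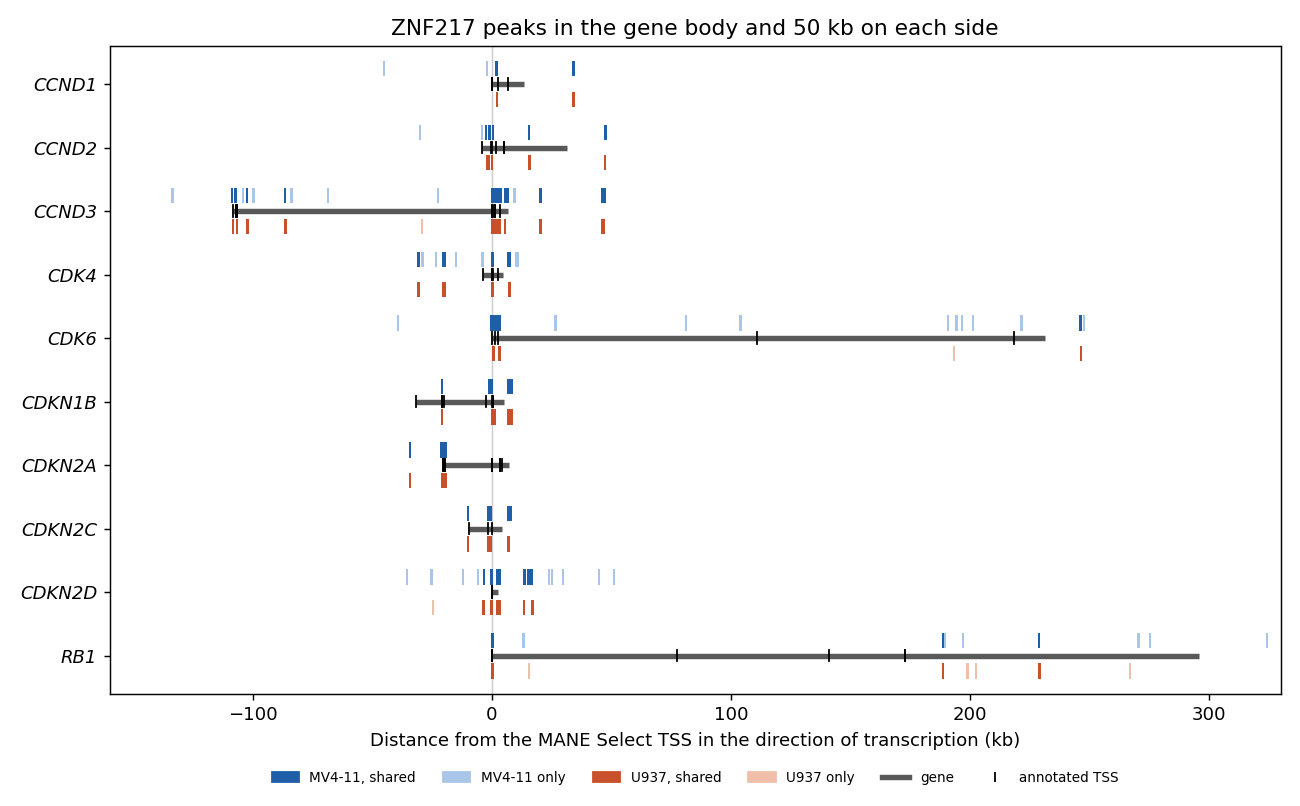
All ZNF217 peaks in the gene body and 50 kb on each side of each G1 gene, drawn to scale by distance in kb from the MANE Select TSS, with MV4-11 above U937 and pale bars for peaks found in 1 line. The long CDK6 body holds peaks of MV4-11 that U937 lacks, while the CDKN2A, CDKN2C and CDKN1B windows hold 2, 3 and 3 peaks in each line.

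Over all windows, MV4-11 had 80 peaks and U937 44, a ratio of 1.82 against 1.67 over the windows of all protein-coding genes. With the MV4-11 list limited to its 22521 widest peaks, as many as in U937, the windows held 47 and 44. The median number per 100 kb of window was 3.57 in MV4-11 and 2.41 in U937 over the 10 G1 genes, and 1.96 and 1.35 over all genes. In the full lists the difference was uneven. CDKN1B, CDKN2A and CDKN2C had the same number in both lines, RB1 had 9 and 7, and CCND3, CDK4, CDK6 and CDKN2D made up the larger part of the difference.

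**Figure D4:**
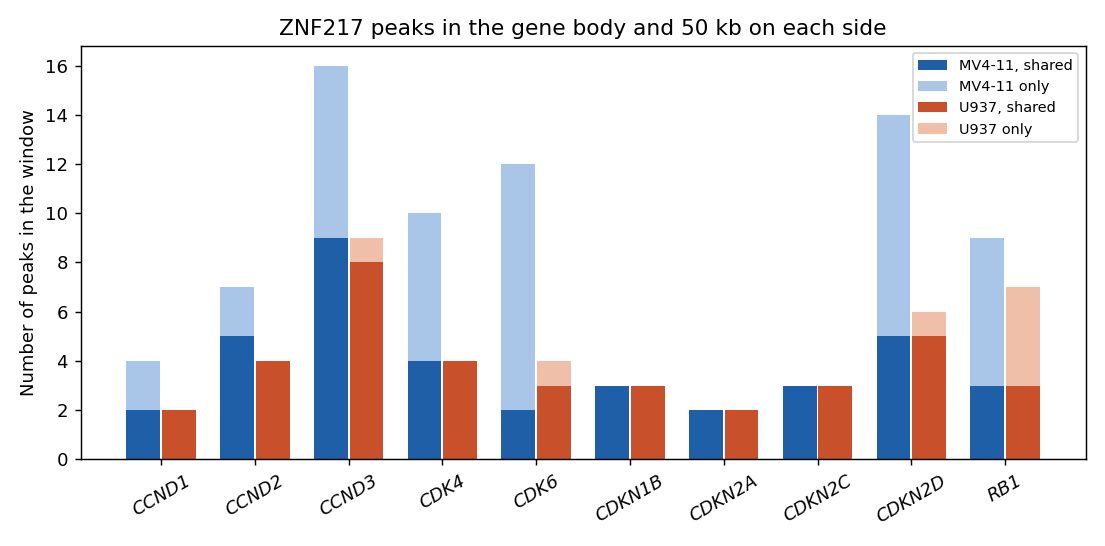
Number of ZNF217 peaks in the window of each G1 gene, by line, with the peaks that overlap a peak of the other line in the dark part of each bar and those found in 1 line in the light part. The MV4-11 bars reach 16 at CCND3, 14 at CDKN2D and 12 at CDK6, with light parts of 7, 9 and 10 peaks.

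Whether a peak was shared went with where it lay. At the G1 genes' own promoters 15 of 17 MV4-11 peaks were shared (88.2%, 95% exact interval 63.6 to 98.5%), as were all 16 of U937 (79.4 to 100%). At promoters of neighbouring genes the share was 15 of 23 in MV4-11 (65.2%, 42.7 to 83.6%) and 14 of 14 in U937 (76.8 to 100%). Outside protein-coding promoters it was 8 of 40 in MV4-11 (20%, 9.05 to 35.6%) and 7 of 14 in U937 (50%, 23.0 to 77.0%). Across the windows of all protein-coding genes, 62.6% of promoter peaks and 25.5% of the others were shared in MV4-11, and 87.0% and 52.0% in U937. In the G1 windows the shared peaks were also the wider ones, with a median of 1052 bp against 460 bp for those in MV4-11 alone, and of 1122 bp against 431 bp in U937.

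**Figure D5:**
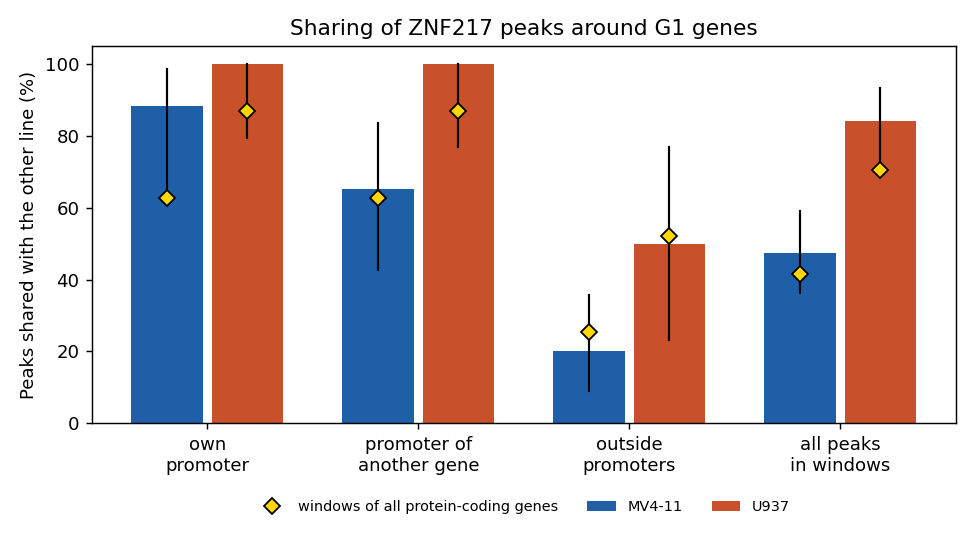
Percentage of the peaks in the windows of the G1 genes that overlap a peak of the other line, by position and line, with 95% exact binomial intervals that cover counting error only and, as marks, the percentage over the windows of all protein-coding genes. At the genes' own promoters the shares are 88.2% and 100%, and outside protein-coding promoters 20% and 50%.

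Other genes of the passage from G1 to S phase were mostly occupied as well. Of 32 such genes, chosen by role, 28 had a promoter peak in MV4-11 and 29 in U937, and 26 in both lines, beside the 47.4% of all genes. The median widest promoter peak of the occupied ones was 1163 bp in MV4-11 and 1157 bp in U937, below the medians of the 10 genes and above those of all occupied genes. Described by role, all 4 E and A cyclin genes were occupied in both lines, with 1052 and 940 bp at CCNE1, 2293 and 2591 bp at CCNE2, and 583 and 1157 bp at CCNA1 in MV4-11 and U937. The pocket protein genes RBL1 and RBL2, relatives of RB1, had 1390 and 1869 bp, and 1096 and 1174 bp. The E2F genes that activate S phase were among the wider ones, with 2920 and 2205 bp at E2F1, 2411 and 2357 bp at E2F2, and 3228 and 1440 bp at E2F3.

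Of the kinases of S phase and their activators, 3 of 4 were occupied in both lines, CDK2 with 1180 and 727 bp, CDK7 with 286 and 337 bp and CCNH with 1034 and 746 bp. Among the other inhibitors CDKN1A, which encodes p21, had 2677 bp in MV4-11 and 2191 bp in U937, CDKN2B had 714 and 1042 bp, and CDKN1C, which encodes p57, had no promoter peak in either line. CDC25A, a phosphatase that activates CDKs, had 871 and 1469 bp and WEE1, the kinase that acts against it, 1077 and 1242 bp. Of 7 genes that act in the degradation of G1 regulators 6 were occupied in both lines, for example SKP2, which marks p27 for degradation, with 1553 and 1687 bp, CKS1B with 1658 and 1574 bp and SKP1 with 1717 and 1329 bp. MNAT1 and E2F7 were occupied in MV4-11 alone, by 376 and 766 bp. E2F5, TFDP2 and AMBRA1, the last of which directs the degradation of D cyclins, were occupied in U937 alone, by 1013, 831 and 655 bp.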

How the data were processed

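CUT&Tag was made with antibodies to ZNF217 or with IgG in MV4-11 and U937 cells. Per the labels and the study's methods, the authors aligned reads with Bowtie2 2.4.4 to hg38 and called peaks with MACS3 3.0. The deposited files, 1 for each ZNF217 library, hold only the chromosome, start and end of each peak, with no signal, p-value or count, and whether IgG served as the control for calling is not given in the sources used here. The counting base of the deposited start is not stated, so each start and width is uncertain by 1 bp.

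Gene models came from GENCODE 44, and promoter sequences from RefSeq (14 windows of 8 of the 10 genes, from 250 bases before to 50 bases after a start). CCND1, CCND2 and the main start of RB1 had no entry used here, and RB1 entered through 1 internal start. Peaks were joined to genes in Python 3.11.15 with NumPy 2.4.6 and SciPy 1.17.1, and sequences were read with samtools 1.23.1. The counting code was checked on simulated data with known overlaps. Promoters were 1 kb on each side of any TSS, windows the gene body and 50 kb on each side, and sharing an overlap of at least 1 bp. Printed sequences leave out bases annotated as untranslated. Intervals are exact binomial (Clopper-Pearson). No test was made, because each line has 1 library.

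The 10 genes, the gene lists and the motifs were chosen with earlier results of these data known. All 10 genes were named, with their widest peaks inside and outside promoters. Of the other 32 genes, those occupied in 1 line or in neither and up to 3 examples per role, in list order, were named. Other promoter windows, gene windows, overlap rules, width limits and merging were tried as alternatives. The MANE Select start alone and a start counted from 1 were added after seeing the data.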

Additional observations from a re-analysis of the deposited data

How the results depend on the processing

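Of 102 values recomputed for 13 results under 14 settings, 90 kept within the limits set for a like value. These limits were wide: 1.5 times the main value, or the 95% interval for a share. A fall from 10 to 8 occupied members thus counted as like. Some settings, such as a start counted from 1, could change little. With 1 start per gene, at the end of the gene record, members with a promoter peak fell to 6 in U937 and 6 in both lines (44.3% and 41.6% of all genes). CCND1, CCND2, CDK4 and CDKN1B were not occupied in U937, and CCND1 and CDKN1B not in MV4-11. Of these, CCND2, CDK4 and CDKN1B did have a peak within 1 kb of the MANE Select start in both lines. The MV4-11 peaks in the windows numbered 47, beside 44 in U937, when the list was limited to its 22521 widest and 43 in the gene bodies alone, where U937 had 28. Per 100 kb, the medians were 8.52 in MV4-11 and 6.63 in U937 in gene bodies, and 4.06 in U937 with 25 kb flanks. The share of MV4-11 peaks that were shared was 60% with peaks of at least 400 bp, 66.0% with its widest peaks and 31.2% with a reciprocal overlap of 50%, where that of U937 was 56.8%. The cause was not tested, beyond that these settings count fewer peaks, shorter windows or stricter overlaps. No paired analysis was possible because each line has 1 library and no test was made, and for the same reason no replicate could be left out. Depth is unknown, so a stretch without a peak may be under the limit of detection of its list.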

Other observations

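The letters of known motifs were searched on both strands in the 14 RefSeq promoter windows of the G1 genes and set beside all 34961 windows of the same length. CAGAA was in 7 of 14 (50%, against 54.4% of all windows), the SP/KLF letters GGGCGG in 9 (64.3%, against 45.0%), the PU.1 letters GAGGAA in 5 (35.7%, against 27.9%) and the E-box CACGTG in 4 (28.6%, against 7.27%). The E2F letters TTTNNCGC were in 1 window (7.14%, against 6.91%), as were the ETS letters CCGGAA (against 17.3%), which share GGAA with the PU.1 letters, and the AP-1 letters TGANTCA (against 7.68%). The C/EBP letters TTGCNNAA were in 2 windows (against 10.4%), and the RUNX letters TGTGGT (against 13.1%) and the CREB letters TGACGTCA (against 1.85%), which share TGA with AP-1, were in none. The windows of 1 gene can lie close together and are not independent. Their median GC content was 67%, against 58.7% over all windows.

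At the central 300 bp of the peaks in the G1 windows, CAGAA was found in 41 of 80 MV4-11 peaks (51.2%, against 55.0% of all peaks of that list) and in 20 of 44 U937 peaks (45.5%, against 51.5%). The E-box was in 8.75% of the MV4-11 centres (7.31% of all peaks) and 6.82% of those of U937 (7.35%). The SP/KLF letters were in 32.5% (31.7%) and 36.4% (38.5%). Over all positions the E-box and the SP/KLF letters were slightly above all peaks in MV4-11 and below them in U937. The E2F letters were in 6 of 80 MV4-11 centres (7.5%, against 4.40% of all peaks) and 6 of 44 of U937 (13.6%, against 5.60%). Outside protein-coding promoters the E2F letters were in 0 of 40 and 1 of 14 (7.14%). At the centres of the G1 genes' own promoter peaks, the E-box was in 4 of 17 in MV4-11 (23.5%) and 1 of 16 in U937 (6.25%). The SP/KLF letters were there in 8 of 17 (47.1%) and 8 of 16 (50%), and the E2F letters in 3 of 17 (17.6%) and 2 of 16 (12.5%). The share at promoter peaks of other genes was not counted, so these shares have no like background. Of the 14 promoter windows 12 were overlapped by a peak in each line, beside 38.1% of all windows in MV4-11 and 31.7% in U937. The 2 without a peak were that of p16INK4a and that of an internal RB1 start, which held 6 CAGAA matches; the main RB1 start, which both lines cover, is not among the 14.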
